A study of Mus musculus with 4 samples.

Results

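The genes described here are Ifitm1, Ifitm2 and Ifitm3, the 3 classical interferon-induced transmembrane protein genes of the mouse, out of 26041 gene symbols in the count tables. They were chosen by name and because their difference between the genotypes was already known, so the genotype contrast chosen by that difference is given for them as a description, with no test. The cells were tdTOMATO+ cells of 4 wk old testes, sorted from mice with the Eomes-iCreERt2-tdTomato knock-in allele on a B6N.Cg background, and the gate was set on littermates that lack the allele. All groups carry this allele. The Plzf lu/lu mice are in addition homozygous for the luxoid mutation of Plzf, which the tables list as Zbtb16, and the Plzf +/+ mice are not (the labels spell the gene Plfz). Single cells of both genotypes were sorted into wells, and transcript 3′ ends were counted by unique molecular identifier (UMI), 1 UMI standing for 1 captured molecule. Levels are given as CPM, the UMIs of a gene in every 1000000 UMIs of the library or class. There were 897 Plzf +/+ cells in 3 libraries (plate 1, 317 cells; plate 2, 303 cells; plate 4, 277 cells) and 352 Plzf lu/lu cells in 2 libraries (plate 3, 314 cells; plate 4, 38 cells). Plate 4 is the only plate that held both genotypes, and the labels name no animals. The p-values between the genotypes below thus measure the spread between libraries, which may be technical. Those between classes of cells within libraries measure how much the class difference varies from library to library. Values are listed in the order of plates 1, 2 and 4 for Plzf +/+ and of plates 3 and 4 for Plzf lu/lu.

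IFITM proteins are small membrane proteins of the CD225 family that sit in the plasma membrane and in endosomes, where they hinder the fusion of enveloped viruses with the cell. Their genes are induced by interferons, which act through JAK kinases and the factors they activate on promoter elements of the interferon-stimulated response type. In the germ line Ifitm1 and Ifitm3, also known as Fragilis2 and Fragilis, are known for their expression in primordial germ cells. Plzf encodes a zinc finger transcription factor that undifferentiated spermatogonia need for their maintenance.

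All 3 genes lie in one stretch of chromosome 7 (RefSeq annotation of GRCm38.p6, GRCm38 being the build that the submitters name). Ifitm2 spans chr7:140954837-140959686, Ifitm1 chr7:140967429-140969827 and Ifitm3 chr7:141009590-141010744. Ifitm1 is read from the plus strand and the other two from the minus strand. The RefSeq promoter windows, from 250 bases before to 50 bases after the start, as the RefSeq table gives them, are shown because the genes are known as interferon targets. For Ifitm1 and Ifitm2 the start that the table uses lies inside the span of the gene and not at its outer end. The capitals mark matches on either strand to GAAA, any 2 bases and GAAA, the core of an interferon-stimulated response element.
Ifitm2 (chr7:140955912-140956211, minus strand): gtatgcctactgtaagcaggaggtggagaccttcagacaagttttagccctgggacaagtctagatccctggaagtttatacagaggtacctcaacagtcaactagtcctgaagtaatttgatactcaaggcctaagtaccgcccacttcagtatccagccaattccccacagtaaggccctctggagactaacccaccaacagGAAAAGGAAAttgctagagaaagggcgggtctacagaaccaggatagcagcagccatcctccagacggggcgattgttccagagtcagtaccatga
Ifitm1 (chr7:140967826-140968125, plus strand): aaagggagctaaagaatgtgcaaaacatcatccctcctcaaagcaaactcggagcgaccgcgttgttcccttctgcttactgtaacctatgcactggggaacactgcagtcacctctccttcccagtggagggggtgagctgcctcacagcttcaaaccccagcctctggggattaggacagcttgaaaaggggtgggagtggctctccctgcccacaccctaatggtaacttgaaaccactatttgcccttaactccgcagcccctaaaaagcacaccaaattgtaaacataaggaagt
Ifitm3 (chr7:141010695-141010994, minus strand): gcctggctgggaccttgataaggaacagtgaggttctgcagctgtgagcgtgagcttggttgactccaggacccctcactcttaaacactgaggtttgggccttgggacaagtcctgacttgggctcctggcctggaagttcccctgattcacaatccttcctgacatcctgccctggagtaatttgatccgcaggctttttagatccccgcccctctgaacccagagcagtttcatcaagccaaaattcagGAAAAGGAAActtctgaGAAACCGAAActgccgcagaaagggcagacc
The window of Ifitm2 held 1 match, which began 46 bases before the start. That of Ifitm3 held 2 matches, beginning at bases 3 and 20 of the transcript, and that of Ifitm1 held none. Of 32544 distinct promoter windows, 3.45% held this motif. The second motif searched was TTCNNNGAA, the form of a gamma-activated site, which 8.33% of the windows held. Among the 3 genes it occurred once, in Ifitm3, at bases 14 to 22 of the transcript, where it overlapped the second match of the first motif. The longest run that the Ifitm2 and Ifitm3 windows shared was 13 bases (caggaaaaggaaa), and it contains the motif. A match is a description of letters and not of a bound site.

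Ifitm2 was the member with most UMIs, and nearly all of them came from Plzf lu/lu cells. Ifitm2 had 6, 5 and 7 UMIs in Plzf +/+, or 2.82, 2.11 and 3.49 CPM. In Plzf lu/lu it had 165 and 9 UMIs, or 63.2 and 35.4 CPM. Both Plzf lu/lu libraries stood above all 3 Plzf +/+ libraries, as the choice of the gene implies. The exact 95% Poisson intervals reached up to 7.19 CPM in Plzf +/+ and down to 16.2 CPM in Plzf lu/lu and cover counting error only. Of the 13728 genes tested between the genotypes, 18.5% also had both Plzf lu/lu libraries above all Plzf +/+ libraries, 0.583% were called higher and 0.233% were called lower (edgeR, adjusted p under 0.05). These calls numbered 112, against 1387 without the Plzf +/+ library of plate 1, 1 without that of plate 2 or of plate 4, and 1 and 6 when plate 3 or the Plzf lu/lu cells of plate 4 were left out, so a call between the genotypes, here and below, depends on the libraries used. The fitted log2 fold change of Ifitm2 was 4.28 (SE 0.38, 3 against 2 libraries), the rank of 7 from the top among these genes, whose median was 0.00. Pooled over libraries the ratio of Plzf lu/lu to Plzf +/+ was 22.0 (exact conditional 95% interval 13.5 to 37.9, counting error only). Within plate 4, the plate that holds both genotypes, it was 10.1 (3.36 to 32.0), from 9 UMIs against 7.

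Ifitm1 was close to the detection limit throughout. It had 0, 0 and 4 UMIs in Plzf +/+, and the zeros of plates 1 and 2 allow up to 1.41 and 1.26 CPM (3 counts of each total). In Plzf lu/lu it had 9 and 2 UMIs, or 3.45 and 7.86 CPM. The pooled levels were 0.615 CPM in Plzf +/+ and 3.84 in Plzf lu/lu, a ratio of 6.25 (1.85 to 26.9). All 4 of the Plzf +/+ UMIs came from plate 4, and within that plate the ratio was 3.94 with an interval of 0.356 to 27.5, so no difference was detectable there. With each cell thinned to 2000 UMIs the log2 of the pooled ratio fell from 2.64 to 1.32, from 2 UMIs in each genotype, and the interval of the ratio was 0.182 to 34.6.

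Ifitm3, the member best known for antiviral activity, was equally sparse, and no difference was detectable in it at this depth, pooled or within plate 4. Its UMIs numbered 5, 3 and 1 in Plzf +/+ against 2 and 2 in Plzf lu/lu. The pooled levels were 1.38 and 1.40 CPM, and the ratio of 1.01 had an interval of 0.227 to 3.62. Within plate 4 the ratio was 15.8 with an interval of 0.820 to 930, from 2 UMIs against 1, so the pooled and the within-plate values of Ifitm3 lie far apart and neither is precise. Neither Ifitm1 nor Ifitm3 passed the filter on low counts, so both have counts and intervals but no fitted fold change.

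**Figure D1:**
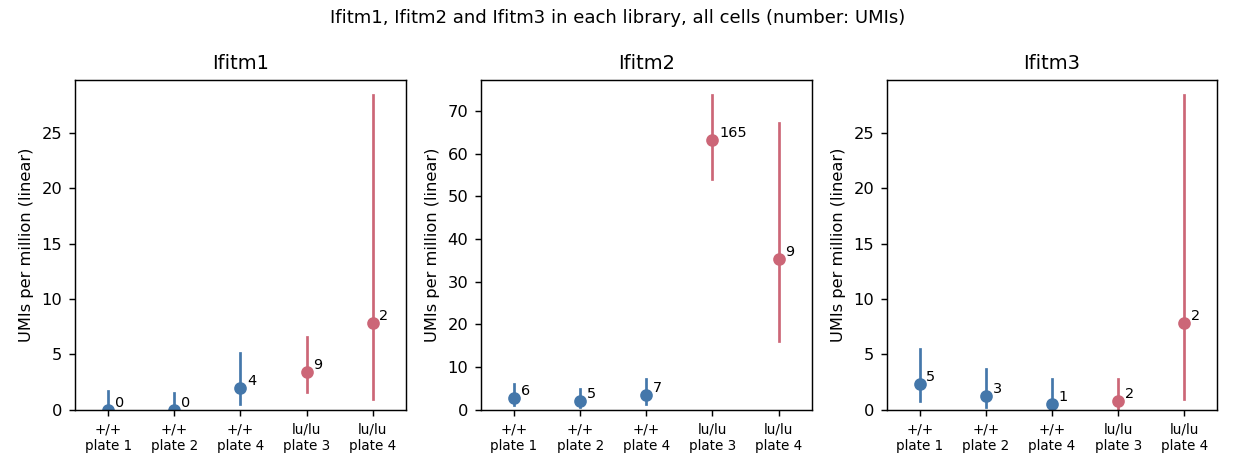
CPM of Ifitm1, Ifitm2 and Ifitm3 (linear y axes, each panel with its own range) in the 3 Plzf +/+ libraries (blue) and the 2 Plzf lu/lu libraries (red), with exact 95% Poisson intervals and the number of UMIs beside each point. Ifitm2 stands at 63.2 and 35.4 CPM in the Plzf lu/lu libraries and at or under 3.49 in the Plzf +/+ libraries, while the intervals of Ifitm3 overlap between the genotypes.

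How far the members could be confused with each other in counting depends on the read ends. The longest coding transcripts of Ifitm2 and Ifitm3 (GENCODE M1) share 50 stretches of 25 bases, but only 2 of these lie in the last 300 bases, where the transcripts are 57.3% identical. Ifitm1 shares 21 such stretches with Ifitm2 and 47 with Ifitm3, with none in the last 300 bases. How reads that fit more than 1 gene were handled is not given in the sources used here, so a small exchange of UMIs between members remains uncertain.

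In single cells the difference in Ifitm2 was one of how many cells held a UMI and, on plate 3, of how many UMIs they held. Of the Plzf +/+ cells, 5 of 317 (1.58%), 4 of 303 (1.32%) and 6 of 277 (2.17%) held an Ifitm2 UMI. Of the Plzf lu/lu cells, 90 of 314 (28.7%) and 7 of 38 (18.4%) did. The means over libraries were 1.69% ± 0.434 (SD, n = 3) and 23.5% ± 7.24 (SD, n = 2). No Plzf +/+ cell held more than 2 Ifitm2 UMIs, and 3 held 2. In Plzf lu/lu 40 cells held 2 or more, 38 of them from plate 3, where the highest cell held 7. On plate 4, 2 of the 7 Plzf lu/lu cells with Ifitm2 held 2 UMIs, the most in a cell there. Of the 97 Plzf lu/lu cells with Ifitm2, 57 held a single UMI, so a cell without a UMI is not a cell shown to lack the transcript. Ifitm1 was found in 3 Plzf +/+ and 11 Plzf lu/lu cells, and Ifitm3 in 8 and 4.

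Detection followed depth in the larger Plzf lu/lu library. When its cells were divided by total UMIs into 4 bins, 10 of 79, 19 of 78, 31 of 78 and 30 of 79 cells held Ifitm2 from the shallowest bin to the deepest. The CPM in the same bins was 57.3 (30.5 to 98.1), 98.3 (69.2 to 136), 85.0 (63.8 to 111) and 44.5 (34.1 to 57.2). It thus did not climb with depth, and the interval of the deepest bin lay below those of bins 2 and 3. The libraries had similar medians of 5061 to 6364.5 UMIs per cell. With each cell thinned to 2000 UMIs, 41 of 333 Plzf lu/lu cells (12.3%) still held Ifitm2, 40 of them from plate 3 and 1 from plate 4. None of the 834 Plzf +/+ cells did, which allows a share of up to 0.360% (3 counts of the total). That zero is favoured by the draw, since thinning would keep 4.74 Plzf +/+ UMIs on average, and on average the ratio of the levels was 24.2.

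**Figure D2:**
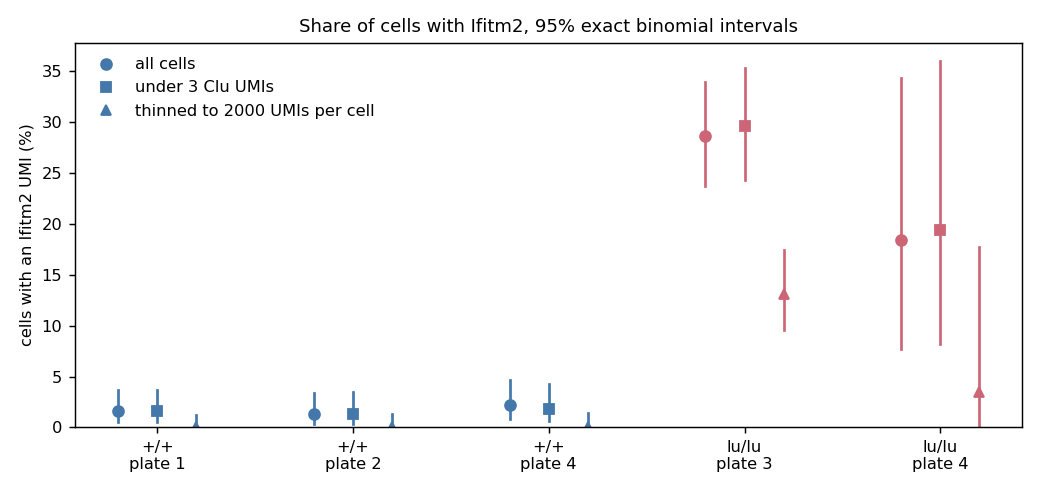
Percent of cells with at least 1 Ifitm2 UMI in each library, for all cells (circles), cells with under 3 Clu UMIs (squares) and cells thinned to 2000 UMIs (triangles), with exact 95% binomial intervals that cover counting error only. The Plzf lu/lu libraries (red) stand at 28.7% and 18.4% of all cells and the Plzf +/+ libraries (blue) at 1.32% to 2.17%.

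Clu encodes clusterin, which is abundant in Sertoli cells, the somatic cells that surround the germ cells of the tubule. Sertoli transcripts were themselves higher in the Plzf lu/lu libraries. The 14 Sertoli markers summed to 677, 672 and 639 CPM in Plzf +/+ against 1827 and 1077 in Plzf lu/lu, with at most 1 marker at 0 in a library. Of the 12 markers tested, 6 were called higher and none lower, beside 0.583% and 0.233% of all 13728 genes tested. Their median log2 fold change was 1.99, and Clu rose by 2.65 (SE 0.22, adjusted p = 0.0103, edgeR). Cells with 3 or more Clu UMIs numbered 7, 9 and 8 in Plzf +/+ against 34 and 2 in Plzf lu/lu. Ifitm2 did not gather in them. In Plzf lu/lu it stood at 24.9 CPM (9 UMIs in 36 cells, interval 11.4 to 47.2) in cells with 3 or more Clu UMIs and at 66.0 CPM (165 UMIs in 316 cells, 56.3 to 76.8) in the others. A Clu UMI was found in 23 of 90 plate 3 cells with Ifitm2 (25.6%) and in 64 of 224 without (28.6%), and on plate 4 in 2 of 7 (28.6%) and 5 of 31 (16.1%). Clu stood at 94.1 CPM in the plate 3 cells with Ifitm2 and at 344 in those without, and at 44.5 and 203 on plate 4.

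Without the cells of 3 or more Clu UMIs, Ifitm2 had 6, 5 and 6 UMIs in Plzf +/+ against 156 and 9 in Plzf lu/lu. The levels were then 2.91, 2.17 and 3.27 against 69.2 and 36.4 CPM, a pooled ratio of 24.1 (14.6 to 42.3). Without every cell that held any Clu UMI the ratio was 22.4 (13.5 to 39.6), from 17 UMIs in 820 Plzf +/+ cells and 133 in 258 Plzf lu/lu cells. The fitted log2 fold changes in these 2 sets of cells were 4.40 and 4.33. For Ifitm1 the pooled ratio without the cells of 3 or more Clu UMIs was 8.27 (2.13 to 46.8) and for Ifitm3 it was 0.827 (0.144 to 3.31). The difference in Ifitm2 is thus as large outside the Clu-rich cells as in all cells.

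The labels call the cells germ cells, and 3 germ cell markers (Dazl and Ddx4 among them) summed to 1697 to 2133 CPM in the 5 libraries. Immune and endothelial cells also express Ifitm genes. The 5 macrophage markers in the tables summed to 6.57 to 9.69 CPM in Plzf +/+ and to 11.9 and 19.6 in Plzf lu/lu. The 9 T and NK cell markers summed to 21.1 to 73.8 against 52.1 and 70.7, and the 8 endothelial markers to 27.4 to 39.0 against 36.0 and 43.2. In single libraries 0 or 1 of the macrophage markers, 0 to 4 of the T and NK cell markers and 0 to 5 of the endothelial markers were at 0. With the cells that held 3 or more UMIs of somatic markers or of Clu left out, the Ifitm2 ratio was 26.6 (15.6 to 48.6), as large as in all cells. All 90 and all 7 Plzf lu/lu cells with Ifitm2 also held a UMI of Dazl, the germ cell RNA-binding protein, as did 204 of 224 and 26 of 31 Plzf lu/lu cells without Ifitm2 on plates 3 and 4. The cells with Ifitm2 were deeper (median 8311 against 5293 UMIs on plate 3, and 8962 against 4352 on plate 4).

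Plates use one set of well barcodes, and 358 of 376 barcodes occurred in more than 1 library. Of the 15 Plzf +/+ cells with Ifitm2, 14 had a barcode that a Plzf lu/lu cell of plate 3 also had, and in 5 of these (35.7%) that cell held Ifitm2. Among Plzf +/+ cells without Ifitm2 the same held for 202 of 723 (27.9%). On plate 4, 5 Plzf +/+ cells lay in wells that the labels give to Plzf lu/lu, and 1 of them held an Ifitm2 UMI. The part of shared wells and barcodes in the low Plzf +/+ level was not tested further.

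Which germ cells held Ifitm2 was asked with markers that the choice of the genes did not use, in cells with under 3 Clu UMIs, with the library as a block. Gfra1 encodes the GDNF co-receptor of the earliest undifferentiated spermatogonia. On plate 3, Ifitm2 stood at 76.7 CPM in 167 Gfra1-negative Plzf lu/lu cells and at 62.8 in 113 Gfra1-positive ones. On plate 4 the 21 negative cells had 6 UMIs (49.0 CPM) and the 15 positive cells 3. In Plzf +/+ the negative cells stood at 4.74, 4.10 and 3.43 CPM and the positive cells at 2.10, 1.65 and 3.19, from 2 to 4 UMIs each. The level was lower in the positive cells in 5 of 5 libraries, and the share of all genes with such an order was not counted. The share of cells with Ifitm2 ran the other way on plate 3, at 34.5% of the positive and 26.3% of the negative cells. On plate 4 it was 13.3% and 23.8%. The positive Plzf lu/lu cells were deeper (median 9374 against 4758 UMIs on plate 3, and 7385 against 4055 on plate 4). The fitted log2 fold change, positive against negative, was -0.57 (SE 0.33, edgeR adjusted p = 0.580), which missed the threshold, and 0.368% of the 11691 genes were called in this contrast. The difference of the Gfra1 contrast between the genotypes was fitted at 0.30 on the log2 scale (SE 0.71). The Plzf +/+ classes held 2 to 4 Ifitm2 UMIs each and the gene passed the filter through the Plzf lu/lu libraries, so nothing is read from this value. Over all 11691 genes that edgeR interaction test called 0, and 325 had an unadjusted p under 0.05.

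Lin28a encodes an RNA-binding protein found in part of the undifferentiated spermatogonia. Ifitm2 stood at 74.5 CPM in 207 Lin28a-negative and at 58.8 in 73 Lin28a-positive Plzf lu/lu cells of plate 3. On plate 4 it was 32.0 in 24 and 40.9 in 12 cells, the opposite order, within wide intervals (8.71 to 81.9 and 13.3 to 95.5). In Plzf +/+ the negative cells stood at 2.75, 1.68 and 4.88 CPM and the positive cells at 3.29, 3.85 and 0, from 0 to 6 UMIs each. The Plzf +/+ libraries of plates 1 and 2 thus also had the opposite order. The share of cells with Ifitm2 was 34.2% of the Lin28a-positive and 28.0% of the negative cells on plate 3. Among the Plzf lu/lu cells of plate 4 it was 33.3% and 12.5%. The positive cells were deeper (median 10019 against 5587 UMIs on plate 3, and 11463 against 3490 on plate 4). The fitted log2 fold change was -0.32 (SE 0.35, edgeR adjusted p = 0.733), with 3.56% of 11039 genes called.

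Kit and Stra8 mark spermatogonia that have entered differentiation under retinoic acid. This contrast had the largest fold change of the 3. On plate 3, 189 Plzf lu/lu cells without Kit or Stra8 had 121 Ifitm2 UMIs (86.2 CPM, 71.5 to 103) and 91 cells with Kit or Stra8 had 35 (41.2 CPM, 28.7 to 57.3). On plate 4 the 26 negative cells had 7 UMIs (49.7 CPM) and the 10 positive cells 2 (18.8 CPM). In Plzf +/+ the negative cells had 3, 5 and 6 UMIs and the positive cells 3, 0 and 0. Of the 5 libraries, 4 had the lower level in the positive cells, plate 1 being the exception. The log2 fold change was -1.14 (SE 0.42, edgeR unadjusted p = 0.0136, adjusted p = 0.211), which missed the threshold, and 1.73% of 11653 genes passed it. When a positive cell had to hold at least 2 UMIs of Kit or Stra8, the fold change was -1.98 (SE 0.48, edgeR adjusted p = 0.0208) and passed, as did 5.1% of the 10138 genes tested in that setting. The share of cells with Ifitm2 on plate 3 was 31.2% of the negative and 26.4% of the positive cells, the positive cells being deeper (median 7498 against 5587 UMIs).

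**Figure D3:**
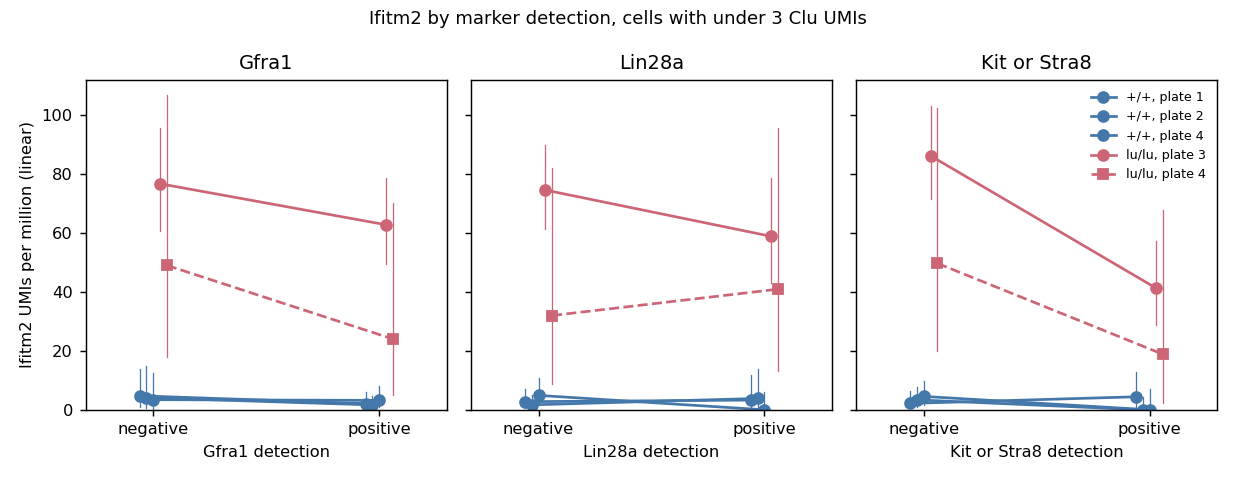
Ifitm2 CPM (linear) in cells negative and positive for Gfra1, Lin28a, and Kit or Stra8, cells with under 3 Clu UMIs, each library joined by a line, with exact 95% Poisson intervals. The Plzf lu/lu library of plate 3 falls from 86.2 to 41.2 CPM with Kit or Stra8, and the Plzf +/+ libraries stay under 5 in every class.

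Few cells held more than 1 member, as Ifitm1 and Ifitm3 were sparse. In Plzf lu/lu, where 27.6% of all cells held Ifitm2, 5 of the 103 cells with Ifitm1 or Ifitm2 held both, which is 5 of the 11 cells with Ifitm1 and 5 of the 97 with Ifitm2. Ifitm2 and Ifitm3 were together in 2 of 99 cells, which is 2 of the 4 cells with Ifitm3, and Ifitm1 and Ifitm3 in none of 15. In Plzf +/+, 1 of 22 cells held both Ifitm2 and Ifitm3, and no cell held Ifitm1 with another member. At least 1 of the 3 genes was found in 25 of 897 Plzf +/+ cells and in 105 of 352 Plzf lu/lu cells.

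The genes around the cluster were examined next. The annotation places 21 genes within 100000 bases of the cluster, members included, and 12 of them had a UMI, while the other 9 were not analysed here. Levels of these and the further genes below are TMM-scaled. Besides Ifitm2, 5 were fitted, and none was called. Psmd13, a subunit of the proteasome cap, stood at 106, 107 and 96.5 CPM (TMM-scaled) in Plzf +/+ and at 135 and 132 in Plzf lu/lu (log2 fold change 0.42, SE 0.15, edgeR adjusted p = 0.259). Bet1l, a SNARE protein of the Golgi, had a log2 fold change of 0.09 (SE 0.29), the mitochondrial deacetylase Sirt3 0.34 (SE 0.36) and the glycosyltransferase B4galnt4, on the other side of the cluster, 0.06 (SE 0.50). The pseudogene Gm15542, which overlaps Psmd13 so that reads could be split between them, stood lower, at 30.6, 19.1 and 23.5 against 7.93 and 11.3 CPM (log2 fold change -1.47, SE 0.40, edgeR adjusted p = 0.151). Nlrp6, Pkp3, Sigirr and Ano9 had 1, 11, 18 and 5 UMIs over all libraries and were not fitted.

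**Figure D4:**
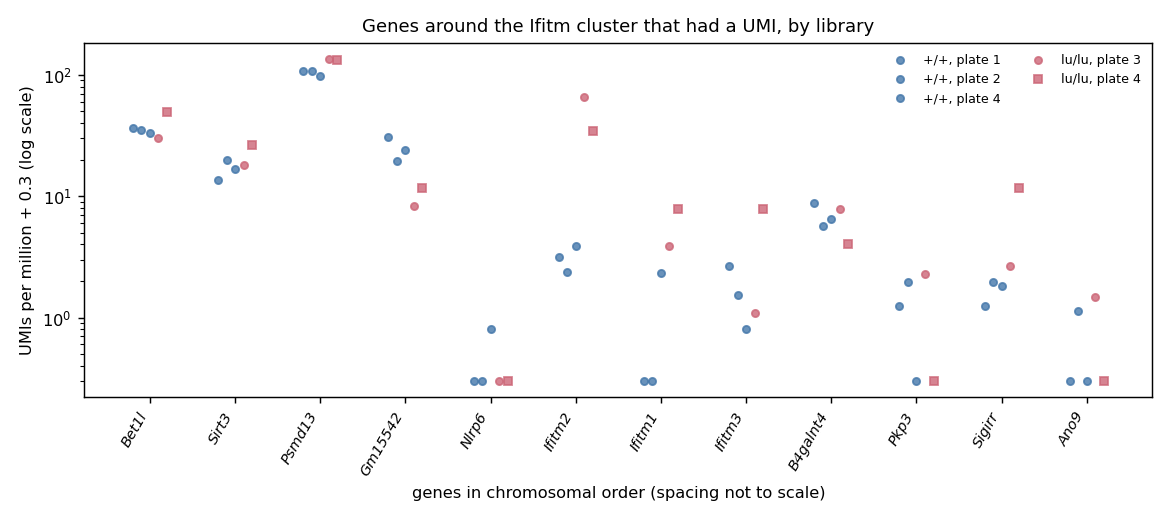
CPM (TMM-scaled, plus 0.3, log scale) of the 12 genes around the Ifitm cluster that had a UMI, in chromosomal order with spacing not to scale, for Plzf +/+ (blue) and Plzf lu/lu (red) libraries. Ifitm2 stands at or under 3.57 CPM in Plzf +/+ and at 65.4 and 33.8 in Plzf lu/lu, and the libraries of both genotypes overlap in Bet1l, Sirt3 and B4galnt4.

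Of the other family members, Ifitm5 and Ifitm6 were not analysed here. Ifitm7, an Ifitm-like gene on chromosome 16, had 12, 92 and 76 UMIs in Plzf +/+ against 39 and 4 in Plzf lu/lu. Its TMM-scaled level of 27.5 ± 19.0 CPM (SD, n = 3) stood beside 15.2 ± 0.294 (SD, n = 2), and its log2 fold change was -0.81 (SE 0.91, edgeR adjusted p = 0.812). Ifitm10 had 1, 1 and 0 UMIs in Plzf +/+ against 4 and 2. Of 12 genes in the list of other Ifitm and CD225 genes, 8 are in the tables and 2, Ifitm7 and Tmem91, were tested, neither called.

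The interferon lists were set beside all genes, of which 112 of 13728 were called and 1943 had an unadjusted p under 0.05. Among 19 genes for receptors and signalling 17 were tested, none was called and 6 had an unadjusted p under 0.05. Their median log2 fold change was -0.10 beside 0.00 over all genes, with 6 values above 0 and 11 below. Jak1, the kinase shared by the interferon receptors, stood at 220 ± 31.3 CPM (SD, n = 3) in Plzf +/+ and at 125 ± 9.83 (SD, n = 2) in Plzf lu/lu (log2 fold change -0.79, SE 0.18, edgeR adjusted p = 0.0990). The type I receptor subunit Ifnar1 had -0.80 (SE 0.22, adjusted p = 0.163), Irf1 0.25 (SE 0.25, adjusted p = 0.746) and Irf3 0.24 (SE 0.22, adjusted p = 0.724).

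Of 54 interferon-stimulated effector genes 52 are in the tables and 28 were tested, of which 11 had an unadjusted p under 0.05. Of these 28, only Ifi27 was called, with 113, 122 and 106 UMIs in Plzf +/+ and 302 and 36 in Plzf lu/lu, or 52.7 ± 1.81 CPM (SD, n = 3) against 128 ± 11.1 (SD, n = 2). Its log2 fold change was 1.31 (SE 0.17, edgeR adjusted p = 0.0204). Ifi27 encodes a mitochondrial membrane protein. Over all 6 pathway lists 1 gene was called, against 21 without the Plzf +/+ library of plate 1. The call of Ifi27 was lost without any one of 4 of the 5 libraries, all but the Plzf +/+ library of plate 1 (adjusted p = 0.123 and 0.157 without the Plzf +/+ libraries of plates 2 and 4, 0.344 when plate 3 and 0.105 when the Plzf lu/lu cells of plate 4 were left out), while the log2 fold change stayed between 1.19 and 1.45. The list's median was 0.26, with 17 values above 0 and 11 below. Samhd1, a dNTP hydrolase, had 0.35 (SE 0.18, adjusted p = 0.441), Parp12 0.41 (SE 0.23, adjusted p = 0.472) and the RNA-editing enzyme Adar -0.70 (SE 0.27).

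**Figure D5:**
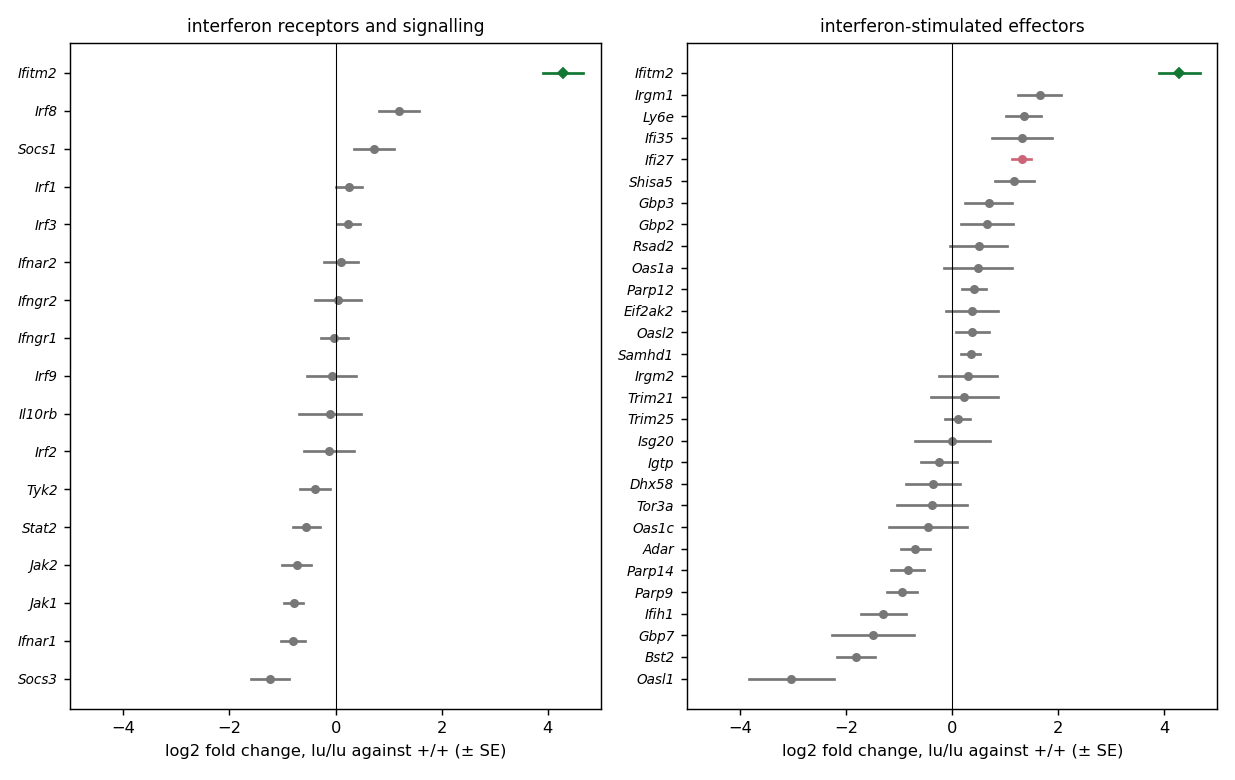
Log2 fold change of Plzf lu/lu against Plzf +/+ (± SE, edgeR) for tested genes of the interferon receptor and signalling list (left) and the interferon-stimulated effector list (right), with Ifitm2 (green diamond) on top as a description. Ifi27 (red) is the called gene, the others (grey) were not called, and Ifitm2 at 4.28 lies beyond all of them.

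The antigen presentation list, which interferons also induce, had 10 of 16 genes tested and none called, with all 10 values above 0, a median of 0.57 and 2 at an unadjusted p under 0.05. Its 4 most abundant genes were Psme2 (log2 fold change 0.12, SE 0.19, adjusted p = 0.875), Psme1 (0.26, SE 0.17, adjusted p = 0.584), Psmb10 (1.00, SE 0.18, adjusted p = 0.0547) and B2m (0.28, SE 0.17, adjusted p = 0.526), all by edgeR. They encode the proteasome activator, an immunoproteasome subunit and the light chain of MHC class I.

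Genes for enzymes and partners of IFITM proteins were expressed in both genotypes. All 10 were tested and none was called, with a median of -0.10 and 1 at an unadjusted p under 0.05. Nedd4, the ubiquitin ligase that targets IFITM3, stood at 177 ± 30.3 CPM (SD, n = 3) and 178 ± 9.22 (SD, n = 2), a log2 fold change of 0.05 (SE 0.19). The tetraspanin Cd9 had 0.46 (SE 0.17, edgeR adjusted p = 0.275), Vapa, a membrane contact site protein, 0.19 (SE 0.17) and the kinase Fyn -0.25 (SE 0.21). Of 14 genes linked to primordial germ cells, the stage for which Ifitm1 and Ifitm3 are known, 9 were tested and none was called, with 8 values above 0, a median of 0.44 and 4 at an unadjusted p under 0.05. Dazl had 0.44 (SE 0.12, edgeR adjusted p = 0.159), Ddx4 0.12 (SE 0.14), Dnd1 0.48 (SE 0.22) and Klf4 0.29 (SE 0.23).

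The mutated gene followed the labels. Zbtb16 had 164, 126 and 141 UMIs in Plzf +/+ against 46 and 3 in Plzf lu/lu (log2 fold change -1.97, SE 0.30, edgeR adjusted p = 0.0319). Among Plzf lu/lu cells of plate 3, Zbtb16 UMIs were found in 17 of 90 cells with Ifitm2 and in 19 of 224 without, at 20.3 and 16.1 CPM. On plate 4 they were found in 0 of 7 cells with Ifitm2 and in 3 of 31 without, the opposite order in few cells.

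The genes whose pattern was most like that of Ifitm2 were sought across 18 groups of cells, formed by library, Gfra1 class and Kit or Stra8 class, among 4465 genes of at least 50 CPM on average. The groups differ in genotype, so genes with a genotype difference rank high by construction. First came Rps15a-ps8, a pseudogene of a small ribosomal subunit protein (Pearson r = 0.96), with 228, 252 and 268 UMIs in Plzf +/+ and 2762 and 293 in Plzf lu/lu and a log2 fold change of 3.30. It was followed by Ifi27 (r = 0.91), the metallothionein Mt2 (0.90), the ferritin heavy chain Fth1 (0.89) and Timm8b (0.88), a mitochondrial import protein. Across 1189 single cells, which pool both genotypes, share libraries and differ in depth, the r of Rps15a-ps8 was 0.32. That of Ifi27 was 0.13, of Mt2 0.19, of Fth1 0.19 and of Timm8b 0.13. The genotype difference contributes to these values in the same way. For the sparse Ifitm1 the leading genes were Xpot (0.86), Brd1 (0.86), 1810058I24Rik (0.82), Cpped1 (0.81) and Atp6v1b2 (0.81). For Ifitm3 they were Klhdc3 (0.82), Tln2 (0.80), Rad23b (0.76), Emc4 (0.76) and Atp1b3 (0.75). Across single cells the r of these 10 genes lay between -0.04 and 0.03. Ifitm1 and Ifitm3 had 15 and 13 UMIs in all, so these similarities rest on few UMIs.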

How the data were processed

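The authors deposited 1 table of raw UMI counts per genotype. Per the labels, bcl2fastq 2.18.0.12, Picard 2.9.3, STAR 2.5.4a and GRCm38 are named in the submitters' processing notes. Cell names carry a barcode and a library name, which was matched to the sample titles, wells were looked up in the deposited barcode table, and the genotype of plate 4 cells is that of their table. The members and lists were chosen with earlier results of these data known. UMIs were summed per library, or per library and marker class, and fitted over all genes with edgeR 4.0.16 in R 4.3.3 (filterByExpr, TMM, robust glmQLFit, glmQLFTest, Benjamini-Hochberg adjusted p under 0.05). The SE is the log2 fold change over the root of F. Named genes were the members, called list genes, up to 4 list genes of highest mean, the 5 genes of highest Pearson r with each member and neighbours within 100000 bases. Libraries held 254514 to 2608702 UMIs. Intervals are exact 95% Poisson, binomial or conditional binomial and cover counting error only. The procedure was tested on simulated data. DESeq2 1.42.0, filters, left-out libraries and cells, thinning to 2000 UMIs (63 and 19 shallower cells left out) and a replicate block were alternatives. The counts of the receptor and signalling list include 1 gene whose values are not reported here.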

Additional observations from a re-analysis of the deposited data

How the results depend on the processing

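The log2 fold change of Ifitm2 between the genotypes lay between 3.34 and 4.60 under 15 alternatives, 13 of which moved it by less than the spread between libraries (SD 0.48). The others were plate 4 alone, with 3.34, and leaving out Plzf lu/lu replicate 1 (plate 3), with 3.65. Leaving out 1 library gave 3.65 to 4.53. With the replicate numbers of the titles as a block it was 4.33. Whether these numbers pair the libraries is not known. The deviations of numbers 1 and 2 from their genotype means correlated at 0.02 and -0.01. With 2 Plzf lu/lu libraries the deviations of one mirror those of the other, so these values cannot decide it. The genotype calls numbered 112 in all, 1 under the replicate block, 139 with DESeq2 and 61 without cells of 3 or more Clu UMIs. They numbered 583 without the filter, 233 without cells of any Clu UMI, 671 without very deep cells and 366 after thinning. Without cells of 3 or more Clu or somatic marker UMIs they numbered 470. With 1 Plzf +/+ library left out they numbered 1 to 1387, the most without that of plate 1. The calls among the interferon-linked lists numbered 1, and 10 without the filter, 2 without cells of any Clu UMI and 8 without very deep cells. They numbered 8 without cells of 3 or more Clu or somatic marker UMIs, 4 after thinning and 0 under the block. With 1 Plzf +/+ library left out they numbered 0 to 21.

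The Kit or Stra8 contrast passed the threshold under 1 of 10 alternatives, the minimum of 2 UMIs (-1.98). The Gfra1 contrast ranged from -0.95 to -0.18 and the Lin28a contrast from -0.55 to -0.14, with no call. The genotype difference in the Gfra1 contrast turned to -0.30 without Plzf lu/lu replicate 1 and lay between -0.30 and 0.65 over the left-out libraries. Genes called in these contrasts numbered 0 to 289 for Gfra1 (43 in the reported fit), 1 to 868 for Lin28a (393) and 2 to 661 for Kit or Stra8 (202). The mean share of Plzf lu/lu cells with Ifitm2 fell from 23.5% to 8.30% after thinning and to 8.68% with at least 2 UMIs, and left-out libraries gave 18.4% to 28.7%. Of the 5 genes most like Ifitm2, 1 was among the first 5 across single cells. Ifitm2 did not pass the filter in the Plzf +/+ libraries alone, without the library block, in the genotype fit after thinning or in the thinned Lin28a and Kit or Stra8 contrasts, and the thinned genotype difference in the Gfra1 contrast could not be estimated. The cells in off-label wells and the Plzf lu/lu libraries alone were alternatives chosen after seeing the data. Causes of these changes were not tested. With 1 Plzf lu/lu library left, its spread is assumed to be that of Plzf +/+.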
